A study of Mus musculus with 64 samples.

Results

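The genes described here are the immunoglobulin genes of the mouse, taken as those with symbols starting with Ighv, Ighg, Ighm, Ighd, Igha, Ighe, Igkv, Igkc, Iglv or Iglc (without Ighmbp2, which is not an immunoglobulin gene) and with at least 50 read pairs summed over the 64 libraries. They numbered 165 of the 381 genes with these symbols and of the 52636 genes of the count table. There were 80 heavy chain V segments (Ighv), 71 kappa V segments (Igkv), 3 lambda V segments (Iglv), 7 heavy chain constant genes and 4 light chain constant genes. They were thus chosen by their summed read pairs over all libraries, which are not a result. At its edge, Ighv8-2 with 52 and Ighv1-34 with 55 read pairs were inside, and Igkv9-123 with 48 and Ighv7-4 with 47 were outside. Ighe, with 21 read pairs, and Iglc4, with 27, also fell below it.

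Antibodies are built from paired heavy and light chains. Each developing B cell joins V, D and J segments into a heavy chain exon and V and J segments into a light chain exon, so that a B cell and its descendants share their V segments. A B cell first transcribes Ighm (the constant region of IgM) and Ighd (IgD). After activation it can switch to Ighg, Ighe or Igha, which encode IgG, IgE and IgA, and a plasma cell devotes much of its transcription to the chains it secretes.

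The 64 libraries were made from brown (BAT) and epididymal white (eWAT) fat depots of male mice aged 2 to 4 months on a chow diet. FANKO mice carried floxed Nampt, an enzyme of NAD+ synthesis, together with Adiponectin-Cre, which acts in adipocytes and not in B cells. WT mice were their littermates without Cre. Tissue was taken at ZT 6, 10, 18 and 22, where ZT 0 is lights on, with 4 libraries for each depot, genotype and time, so that each depot and genotype had 16. The labels give neither whether replicates are separate animals nor whether BAT and eWAT of 1 number came from 1 mouse, so the p-values measure the spread between these libraries.

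Libraries held 6117343 to 30544847 counted read pairs (median 15826651). Values are CPM, read pairs scaled to a common library size of 1000000 with TMM factors, and groups of 16 libraries are given as the lowest, median and highest value. Nampt, the targeted gene, was at 479, 702 and 1454 CPM in WT BAT and at 109, 143 and 186 CPM in FANKO BAT, which did not overlap. It was at 112, 150 and 310 CPM in WT eWAT and at 101, 114 and 131 CPM in FANKO eWAT, which did. Only exon 3 of Nampt was floxed, and these counts cover the whole gene in all cells of the tissue. They thus do not measure the deletion itself, and the study reported markedly lower NAD+ in both FANKO depots. By the edgeR quasi-likelihood test with Benjamini-Hochberg adjustment (FDR), Nampt fell by 2.31 ± 0.07 (SE) on the log2 scale in BAT (FDR 1.1e-36) and by 0.50 ± 0.07 in eWAT (FDR 4.7e-09). At an FDR below 0.01, adipocyte markers were lower in FANKO BAT than in WT BAT in 6 of 6 genes (4 of 6 with scaling by total counts alone). Markers of macrophages (6 of 6 genes) and T cells (10 of 10) were higher. Of all genes tested, 33.9% were lower and 33.1% higher there. Brown adipocyte markers (6 genes) summed to 4556 to 10390 CPM in WT BAT and 1310 to 3553 CPM in FANKO BAT. Their sums were 10.7 to 30.1 CPM in WT eWAT and 40.8 to 87.0 CPM in FANKO eWAT. Taken singly, 3 of the 6 were lower in FANKO BAT and 3 did not pass. With scaling by total counts alone 3 were lower and 1 was higher. In immunoglobulin genes 4 libraries stood apart. The FANKO BAT libraries of ZT 10 replicate 2 and ZT 22 replicate 3 held 34.0% of the immunoglobulin CPM of their group, and the WT eWAT libraries of ZT 6 replicate 4 and ZT 18 replicate 4 had the most switched isotypes of theirs. Counts without them are given where they moved a result.

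The first question was how much immunoglobulin RNA each depot held in each genotype. In BAT of FANKO mice the summed level of the 165 genes was 110-fold that of WT BAT by the group medians, and in eWAT the medians of the genotypes lay close together. WT BAT held 4.75, 8.72 and 17.2 CPM and FANKO BAT 445, 958 and 3665 CPM. WT eWAT held 181, 292 and 471 CPM and FANKO eWAT 177, 279 and 395 CPM. The lowest FANKO BAT library was thus 26.0 times the highest WT BAT library, while the eWAT ranges largely overlapped. In bulk tissue, more B lineage cells and more immunoglobulin RNA per cell cannot be told apart.

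The heavy chain constant genes lie in 1 cluster on the minus strand of chromosome 12 (GRCm38), in the order Ighm (chr12:113418558-113422730), Ighd (chr12:113406604-113416324), Ighg3 (chr12:113356224-113361232), Ighg1 (chr12:113325240-113330523), Ighg2b (chr12:113302965-113307933), Ighg2c (chr12:113285325-113288932) and Igha (chr12:113254830-113260236). Switching joins a V exon to a constant gene further along this order and removes those between. Igkc, the constant gene of kappa chains, lies on the plus strand at chr6:70726435-70726966, and Iglc1, of lambda chains, on the minus strand at chr16:19061618-19062071.

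All 11 constant genes were higher in FANKO BAT than in WT BAT. Igkc was at 0.0874, 0.440 and 2.39 CPM in WT BAT and at 62.5, 159 and 729 CPM in FANKO BAT, a log2 fold change of 8.41 ± 0.48 (edgeR FDR 7.9e-24). Ighm was at 3.17, 5.80 and 7.21 CPM in WT BAT and at 138, 222 and 1442 CPM in FANKO BAT, a log2 fold change of 6.23 ± 0.31 (FDR 9.9e-27). Every FANKO BAT library was above every WT BAT library for both genes. Among the switched isotypes Ighg2c went from 0, 0 and 0.478 CPM to 22.4, 65.7 and 324 CPM, with 17 read pairs in all of WT BAT and 23580 in FANKO BAT. Igha, the isotype of mucosal secretions, went from 0, 0.428 and 2.87 CPM to 40.8, 105 and 188 CPM (log2 fold change 7.57 ± 0.41, FDR 1.2e-24), and Ighg2b from 0, 0.0942 and 0.851 CPM to 18.7, 49.8 and 277 CPM (8.79 ± 0.57, FDR 5.2e-21). Ighg1 and Ighg3 had 3 and 2 read pairs in WT BAT against 5392 and 929 in FANKO BAT, so that the ratios of summed CPM were 1321 (95% exact counting interval 452 to 6407) and 341 (94.2 to 2823). Intervals of this kind cover counting error only.

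Ighd changed least, from 0.0872, 0.438 and 1.13 CPM to 1.02, 2.71 and 8.36 CPM (log2 fold change 2.65 ± 0.28, FDR 8.4e-13), and it was the 1 constant gene of 11 in which libraries of the genotypes overlapped in BAT. Every FANKO BAT library was above every WT BAT library for 52 of the 131 immunoglobulin genes tested, the 10 other constant genes among them. This held for 12.5% of all genes tested. A segment that was tested because of its reads in FANKO BAT alone had to be higher there, so the count is not set against that share. The lambda constant genes had log2 fold changes of 6.83 ± 0.57 for Iglc1, 5.68 ± 0.42 for Iglc2 and 5.12 ± 0.50 for Iglc3. Iglc2 shares exon bases with Iglj2 on its strand, and Iglc3 overlaps 2010309G21Rik on the other strand, so their read pairs are less certain.

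**Figure D1:**
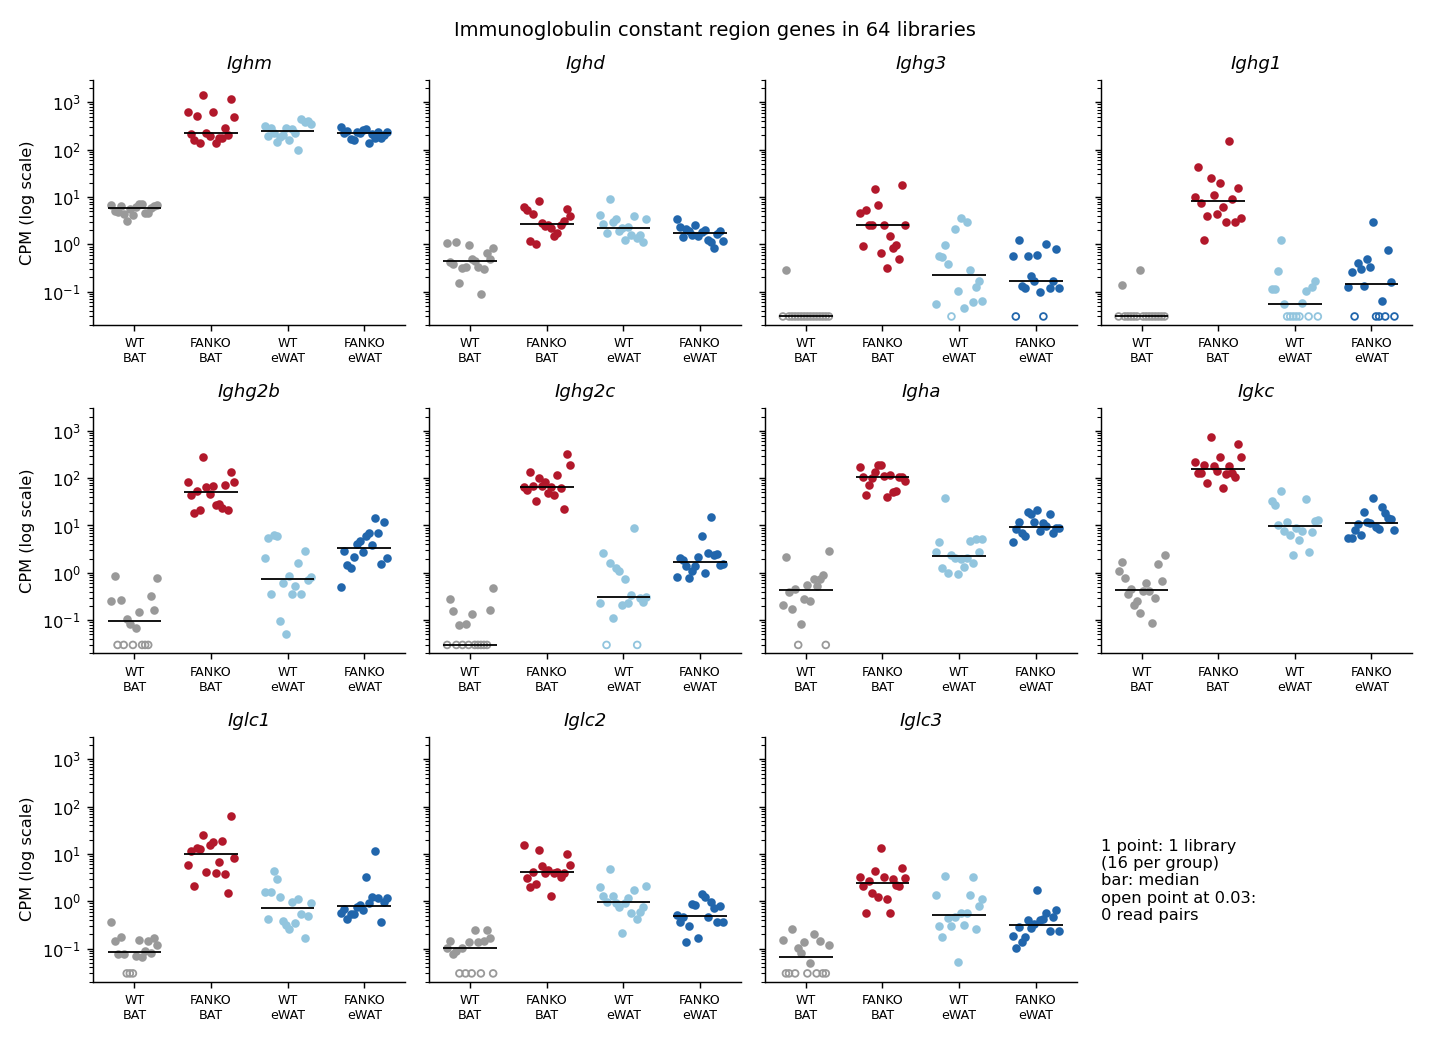
Levels of the 11 constant region genes in the 64 libraries, in CPM on a log scale. Each point is 1 library, bars are medians of 16 libraries, and open points are libraries with 0 read pairs. The FANKO BAT median stands above the WT BAT median in each panel, and for Ighm the medians of FANKO BAT (222 CPM), WT eWAT (251 CPM) and FANKO eWAT (228 CPM) lie close together.

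Of the 165 genes, 131 had enough reads in at least 4 libraries to be tested. The 34 left out were 23 Ighv and 11 Igkv segments with 52 to 853 read pairs each, with sums of 13 (WT BAT), 3463 (FANKO BAT), 489 (WT eWAT) and 309 (FANKO eWAT) read pairs. A segment that passed the filter through FANKO BAT alone had to differ there, so the counts of genes describe the data and do not add to the constant genes' tests. In BAT, 130 of 131 were higher in FANKO and 0 lower at an FDR below 0.01, where 33.1% of all 20249 genes tested were higher and 67.0% changed either way. The log2 fold changes ran from 2.65 to 10.18 with a median of 6.80, against 0.00 over all genes. From ratios of summed CPM, with the 43 tested genes at 0 in WT BAT set at their bound, the median was 6.89. The medians were 6.80 for Ighv (57 of 57 higher), 6.65 for Igkv (59 of 60), 6.89 for Iglv (3 of 3), 8.21 for heavy constant (7 of 7) and 6.26 for light constant genes (4 of 4). The gene that missed the threshold was Igkv1-133, with 79 read pairs in FANKO BAT and 1 in WT BAT (3.33 ± 1.48, FDR 0.041). Without the 2 FANKO BAT libraries of highest total, 127 of 129 tested were higher.

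Many V segments were not detected at all in WT BAT: 68 of the 165 genes had 0 read pairs over its 16 libraries. Igkv8-30, with 2741 read pairs in FANKO BAT, was at least 672-fold higher against a floor of 3 read pairs over the group. Igkv3-1 and Igkv3-2 were at least 560-fold and at least 557-fold higher. They led in log2 fold change together with Ighg2c (10.13 ± 0.61), at 10.07 ± 1.78 for Igkv3-1 and 10.18 ± 1.41 for Igkv3-2, values that depend on the prior count since WT BAT was at 0.

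In eWAT the picture was mixed, with 2 genes higher, 3 lower and 126 not past the threshold, where 27.6% of all genes tested were higher, 22.8% lower and 50.3% changed either way. The median log2 fold change of the 131 genes was -0.05, close to that of all genes (-0.02), and 65 were above 0. Igha was at 0.941, 2.24 and 37.2 CPM in WT eWAT and at 4.52, 9.34 and 21.4 CPM in FANKO eWAT (log2 fold change 1.47 ± 0.30, edgeR FDR 3.1e-05). Outside the WT library of ZT 6 replicate 4, which held the 37.2 CPM, WT libraries reached at most 5.15 CPM, so that the groups overlapped little. Ighg2b was at 0.0523, 0.758 and 6.40 CPM in WT eWAT and at 0.502, 3.33 and 14.6 CPM in FANKO eWAT (1.28 ± 0.42, FDR 0.0074). Without the libraries numbered replicate 3 its FDR was 0.15, without replicate 4 it was 0.025 and with scaling by total counts alone 0.028.

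The 3 that fell in eWAT were light chain genes. Igkv4-91 was at 0, 0.404 and 2.88 CPM in WT and at 0, 0.0965 and 0.209 CPM in FANKO eWAT (log2 fold change -2.65 ± 0.64, edgeR FDR 2.9e-04). Igkv14-126 was at 0.115, 1.10 and 7.23 CPM in WT and at 0, 0.289 and 3.57 CPM in FANKO eWAT (-1.55 ± 0.51, FDR 0.0083). Iglc2 was at 0.209, 0.958 and 4.86 CPM in WT and at 0.135, 0.485 and 1.46 CPM in FANKO eWAT (-1.03 ± 0.32, FDR 0.0045). The ranges overlapped in each. Without the WT eWAT libraries of ZT 6 replicate 4 and ZT 18 replicate 4 the FDR was 0.0060 for Igkv4-91, 0.077 for Igkv14-126 and 0.051 for Iglc2, and without the libraries numbered replicate 4 none of the 3 passed (FDR 0.015, 0.11 and 0.18). Igkv14-126 passed in none of the 4 fits without a replicate number (FDR 0.010 to 0.11). Igha and Ighg2b passed without the WT eWAT pair of libraries, at FDR 3.2e-11 and 0.0039. Igkc (-0.22 ± 0.32, FDR 0.56) and Ighm (-0.22 ± 0.23, FDR 0.43) did not pass the threshold in eWAT.

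The effects in the depots were compared directly as the log2 fold change in BAT minus that in eWAT. It was above 0 at an FDR below 0.01 for 104 of 131 genes and below 0 for 0 of them by edgeR, all 131 estimates being above 0. Of all genes tested 32.2% were above 0 at that FDR. For a segment that passed the filter through FANKO BAT alone a value above 0 was set in advance, so the count is not set against that share. DESeq2 called 116, all above 0. The differences were 8.63 for Igkc, 6.45 for Ighm, 9.12 for Ighg2c and 6.10 for Igha. Ighg1 was the constant gene of 11 that did not pass, at 8.10 ± 3.11 (FDR 0.018).

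**Figure D2:**
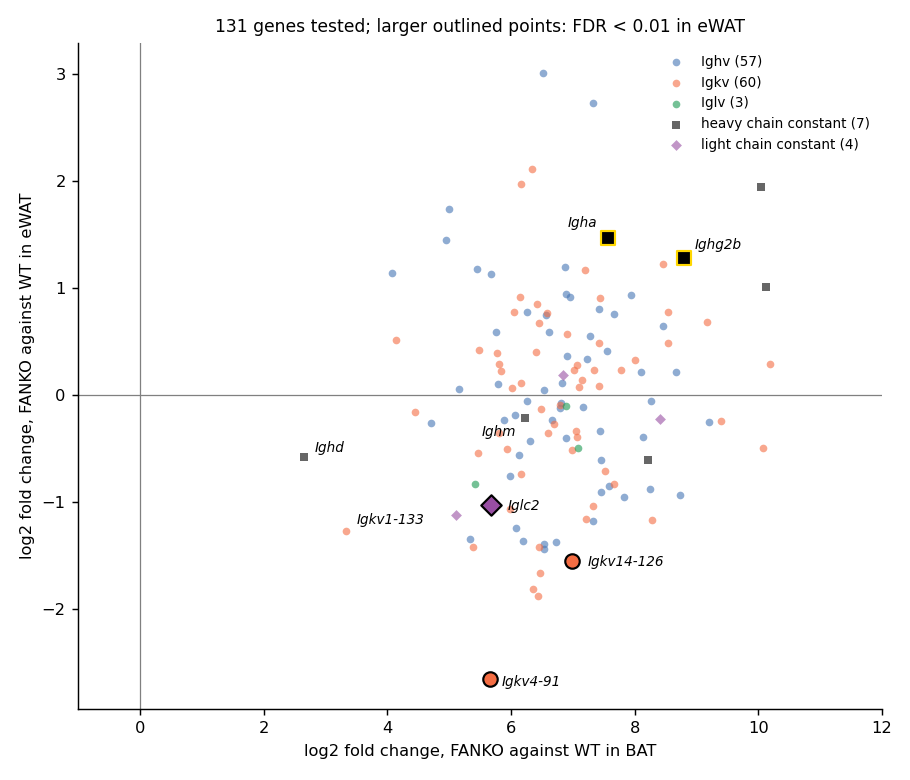
Log2 fold change of FANKO against WT in BAT (horizontal) and in eWAT (vertical) for the 131 genes tested, 1 point a gene by kind. All points lie right of 0, from 2.65 to 10.18, and lie on both sides of 0 vertically; the 5 outlined points passed the threshold in eWAT.

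The second question was how the depots differed within a genotype. In WT mice 40 of 131 genes were lower in BAT than in eWAT and 0 higher, where 41.1% of all genes tested were lower, 32.7% higher and 73.7% changed either way. Of the 131, 43 had 0 read pairs in WT BAT, and segments that passed the filter through FANKO BAT had few read pairs in both WT groups, so the count is not set against that share. Without the WT eWAT libraries of ZT 6 replicate 4 and ZT 18 replicate 4 the count was 24 of 138, and without the libraries numbered replicate 4 it was 22 of 132. Among the 40 were 6 of 7 heavy and 4 of 4 light constant genes. Ighm was 5.48 lower on the log2 scale (FDR 8.8e-25), Igkc 4.52 lower (FDR 5.3e-12) and Igha 2.87 lower (FDR 8.9e-07), and Ighg1 did not pass (FDR 0.36). Ighm, Igkc, Igkv14-126 and Ighv11-2 were the 4 genes with every WT eWAT library above every WT BAT library, which held for 15.1% of all genes tested.

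In FANKO mice the order was turned, with 129 of 131 genes higher in BAT than in eWAT and 0 lower. Of all genes tested 28.1% were higher and 59.7% changed either way. A segment that passed the filter through FANKO BAT alone had to be higher there, so the count is not set against that share. All 7 heavy and all 4 light chain constant genes were among the 129. Ighm was 0.97 ± 0.23 higher in BAT on the log2 scale (FDR 2.6e-04), Igkc 4.11 ± 0.33 (FDR 9.0e-17), Igha 3.23 ± 0.28 and Ighg2c 5.23 ± 0.38. Igkv14-126 (1.37, FDR 0.019) and Igkv1-133 (2.86, FDR 0.055) did not pass. Every FANKO BAT library was above every FANKO eWAT library for 7 of 131 genes (Igha, Ighg2b, Ighg2c, Igkc, Igkv1-110, Igkv6-17 and Iglv3). That is near the 5.18% of all genes tested for which this held. The depot comparisons and the genotype comparisons share libraries and are not independent of each other.

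The third question was which isotypes made up the heavy chain RNA. Levels of different genes are compared per kb of exon, so that a long gene does not count more. Per kb, the median order in FANKO BAT was Igkc (298 CPM per kb), Ighm (118), Ighg2c (49.5), Igha (39.3), Iglc1 (22.1), Ighg2b (18.6), Iglc2 (6.71), Iglc3 (5.43), Ighg1 (3.16), Ighd (1.43) and Ighg3 (1.01). In WT eWAT it was Ighm (133), Igkc (17.9), Iglc1 (1.62), Iglc2 (1.57), Ighd (1.19), Iglc3 (1.14), Igha (0.839), Ighg2b (0.283), Ighg2c (0.230), Ighg3 (0.0888) and Ighg1 (0.0217). The ranges over libraries overlapped in each of the 10 pairs of neighbours in both orders.

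As a share of the heavy chain constant signal per kb, Ighm took 34.6, 53.1 and 75.3% in FANKO BAT, 82.0, 97.5 and 99.4% in WT eWAT and 81.0, 93.4 and 97.2% in FANKO eWAT. In the 12 WT BAT libraries with at least 50 heavy chain read pairs it took 60.5, 84.6 and 90.9%. FANKO BAT thus lay below all eWAT libraries in its Ighm share. Ighg2c took 7.54, 18.2 and 47.7% in FANKO BAT, 0, 0.121 and 10.7% in WT eWAT and 0.378, 1.04 and 10.15% in FANKO eWAT. In the 12 WT BAT libraries it took 0, 0.951 and 6.17%. Igha took 4.03, 9.65 and 27.5% in FANKO BAT, 0.234, 0.645 and 9.90% in WT eWAT and 1.04, 3.12 and 5.12% in FANKO eWAT. In the 12 WT BAT libraries it took 0.945, 5.96 and 18.4%, so that a high Igha share was not particular to FANKO BAT. Ighd, which naive B cells make beside Ighm, took a median of 6.14% in WT BAT and 0.474% in FANKO BAT. Its medians in eWAT were 0.854% in WT and 0.731% in FANKO, so that a low share was not particular to FANKO BAT. WT BAT held 107 Ighd read pairs over its 16 libraries.

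Ighm led every FANKO BAT library but ZT 6 replicate 3, where Ighg2c took 47.7%. Ighg1 had a median share of 1.01% in FANKO BAT but 21.7% in ZT 18 replicate 4. The 2 WT eWAT libraries that stood apart differed in isotype. ZT 6 replicate 4 had 9.90% Igha (37.2 CPM) and ZT 18 replicate 4 had 10.7% Ighg2c (8.95 CPM), with Igkc at 52.5 and 36.1 CPM. Ighe was seen with 20 read pairs in FANKO BAT, 1 in FANKO eWAT and 0 in both WT groups, where a count of 0 allows up to 3.

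**Figure D3:**
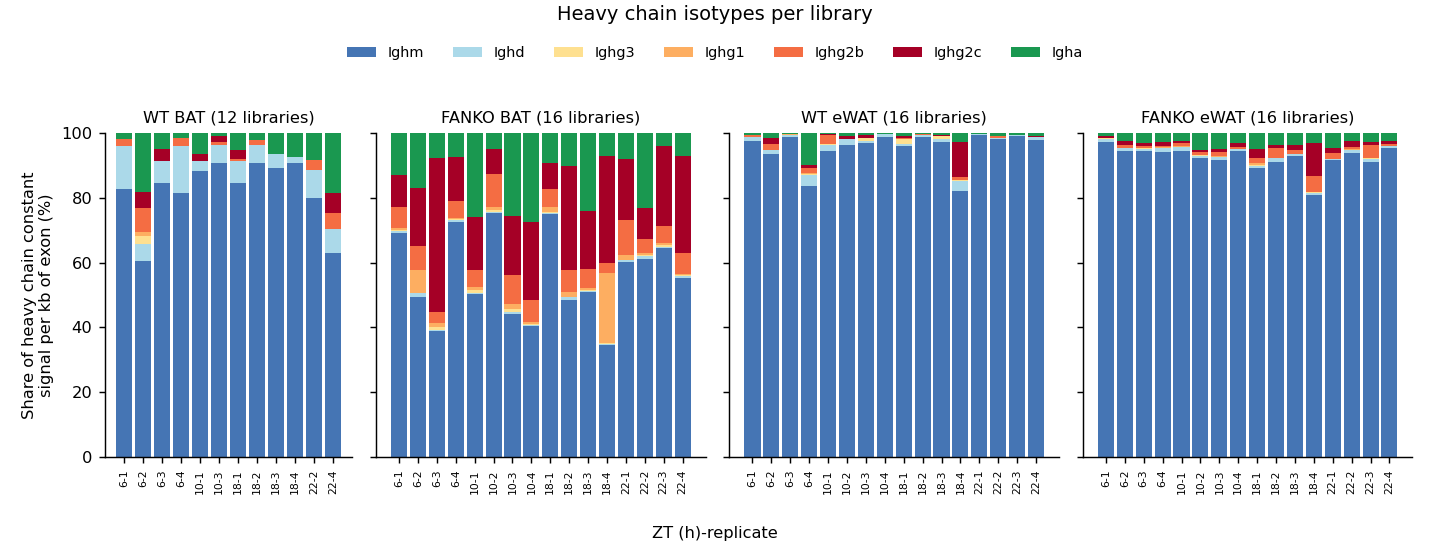
Share of each heavy chain constant gene in the summed heavy chain signal per kb of exon, in percent, 1 bar a library labelled by ZT and replicate, for libraries with at least 50 heavy chain read pairs. Ighm fills 81.0% or more of each eWAT bar and 34.6 to 75.3% of the FANKO BAT bars.

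Heavy and light chains were also set against each other within libraries. The heavy chain constant genes summed to 0.742, 0.928 and 1.28 times Igkc per kb in FANKO BAT. The ratio was 0.928, 7.87 and 45.6 in WT eWAT, 2.24, 5.28 and 16.04 in FANKO eWAT and 1.30, 3.37 and 16.1 in WT BAT. FANKO BAT was thus near 1 in all of its libraries, and in eWAT heavy chain signal exceeded kappa signal in 31 of 32 libraries. The Ighv segments summed to 0.808, 0.975 and 1.31 times the heavy chain constant genes per kb in FANKO BAT but to 0.0271, 0.109 and 0.894 times in WT eWAT and 0.0494, 0.160 and 0.457 times in FANKO eWAT. In the 12 WT BAT libraries with enough read pairs the ratio was 0, 0.290 and 0.633. Per kb, eWAT thus held less Ighv than heavy chain constant signal in all 32 libraries, and so did these 12 WT BAT libraries. For kappa chains the V to constant ratio had medians of 1.01 (FANKO BAT), 0.973 (WT eWAT) and 0.838 (FANKO eWAT), so that for this chain the groups lay closer together.

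**Figure D4:**
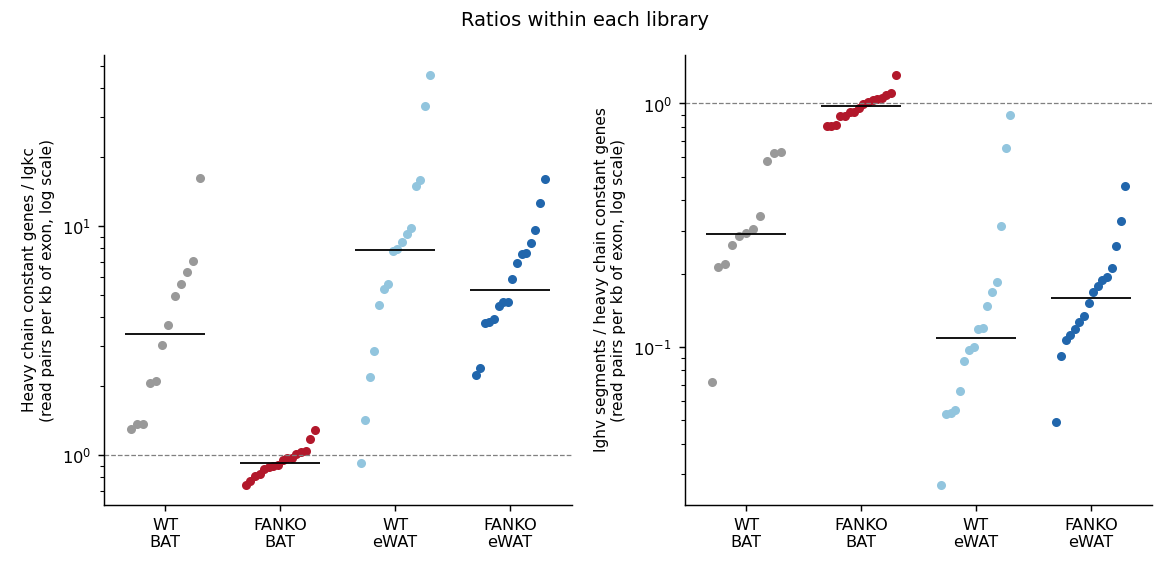
Ratio of heavy chain constant genes to Igkc (left) and of Ighv segments to heavy chain constant genes (right), per kb of exon on log scales, 1 point a library, with bars at medians. One WT BAT library with a ratio of 0 is not drawn on the right. FANKO BAT lies near 1 in both panels, and the WT BAT points and most eWAT points lie above it on the left and below it on the right.

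Relations to Jchain, which links IgM and IgA chains into polymers in plasma cells, were computed over the 16 libraries of a group. They belong to a family of 12 relations, over which p-values were adjusted, and 6 of these are given. On log2 levels, Igkc went with Jchain in FANKO BAT (Pearson r = 0.975, Spearman rho = 0.959, permutation p = 1e-05 for each, the smallest that 100000 permutations can give, adjusted p = 3e-05 and 6e-05). It did so in WT eWAT (r = 0.945, rho = 0.944) and FANKO eWAT (r = 0.925, rho = 0.876), with adjusted permutation p = 3e-05 for each r. Without the 2 farthest libraries r was 0.943, 0.914 and 0.859. Ighm went with Jchain in FANKO BAT (r = 0.937, rho = 0.862, permutation p = 1e-05 and 6e-05, r = 0.863 without 2 libraries). In eWAT it did not pass, with r = -0.283 and rho = -0.256 in WT (permutation p = 0.29 and 0.34, adjusted 0.43 and 0.50) and r = 0.195 and rho = 0.188 in FANKO (permutation p = 0.47 and 0.48). Igkc of eWAT thus followed Jchain in both genotypes, and Ighm of eWAT did not follow it past the threshold. Each ZT held 4 libraries, too few for values within a time point.

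The fourth question was which V segments were used. Because a clone uses 1 heavy and 1 light chain V segment, a library in which 1 segment takes a large share has read pairs from few rearrangements of that segment or from many cells that share it, and the counts do not tell these apart. Shares are of the read pairs on all Ighv or all Igkv genes of a library with at least 50 of them. Segments of a family are alike, and the 38-base reads cannot always be placed: of the 38-base windows of a segment, a median of 65.6% for Ighv (range 2.5 to 100%) and 57.3% for Igkv (17.5 to 100%) matched no other gene, so that shares of near-identical segments are uncertain. The reference ends of the segments on which the results turn are shown, as the last 90 coding bases from the GENCODE transcripts (GRCm38), 5′ to 3′, with the codon of the last in-frame cysteine in capitals, the residue just before the hypervariable join. Ighv5-4 and Igkv12-44 led 1 FANKO BAT library together, Igkv3-1 and its near copy Igkv3-2 each led other libraries, Igkv8-30 held the most kappa read pairs, Ighv11-2 and Igkv14-126 led the most WT eWAT libraries, and Igkv4-91 fell in eWAT.
Ighv5-4: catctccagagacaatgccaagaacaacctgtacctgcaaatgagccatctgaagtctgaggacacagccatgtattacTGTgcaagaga
Ighv11-2: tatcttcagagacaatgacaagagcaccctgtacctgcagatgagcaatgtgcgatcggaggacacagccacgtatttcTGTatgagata
Igkv12-44: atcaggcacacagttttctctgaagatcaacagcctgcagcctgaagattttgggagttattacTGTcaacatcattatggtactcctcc
Igkv3-1: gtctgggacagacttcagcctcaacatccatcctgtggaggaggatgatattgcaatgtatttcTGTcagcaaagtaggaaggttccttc
Igkv3-2: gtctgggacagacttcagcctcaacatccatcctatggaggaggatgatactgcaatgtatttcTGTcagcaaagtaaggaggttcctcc
Igkv8-30: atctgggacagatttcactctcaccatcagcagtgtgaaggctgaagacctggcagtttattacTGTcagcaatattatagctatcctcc
Igkv14-126: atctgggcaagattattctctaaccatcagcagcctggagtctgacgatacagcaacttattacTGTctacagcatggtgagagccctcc
Igkv4-91: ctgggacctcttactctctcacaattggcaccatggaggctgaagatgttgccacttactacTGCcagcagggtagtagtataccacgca

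Ighv5-4 lies at chr12:113597446-113597535 and Ighv11-2 at chr12:114048241-114048330, both on the minus strand. Igkv12-44 (chr6:69814631-69814720), Igkv8-30 (chr6:70117061-70117150) and Igkv4-91 (chr6:68768555-68768644) are on the minus strand of chromosome 6, and Igkv3-1 (chr6:70704088-70704177), Igkv3-2 (chr6:70698978-70699067) and Igkv14-126 (chr6:67896553-67896642) on its plus strand. These stretches are coding exon. Igkv3-1 and Igkv3-2 differed at 5 of the 90 bases, Ighv5-4 and Ighv11-2 at 18, and Igkv3-1 and Igkv12-44 at 41. Windows unique to the segment made up 69.3% of Ighv5-4, 73.9% of Igkv3-1, 68.9% of Igkv3-2 and of Igkv8-30, 53.3% of Igkv12-44, 54.0% of Ighv11-2, 97.8% of Igkv14-126 and 91.3% of Igkv4-91.

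In FANKO BAT many segments were in use, 57 to 76 of the 80 Ighv segments in each library, and the most used one differed between libraries. Its share was 7.11, 19.3 and 62.1% of 712 to 4834 Ighv read pairs, and 11.3, 20.0 and 54.3% for Igkv. It reached 30% or more in 5 of 16 libraries for Ighv and in 6 of 16 for Igkv. For Ighv it did so in 3 of 15 WT eWAT and 2 of 14 FANKO eWAT libraries, and for Igkv in 2 of 15 and 2 of 13. Its eWAT medians were 19.4% (WT) and 17.1% (FANKO) for Ighv and 23.6 and 16.2% for Igkv, so that the typical share was not particular to FANKO BAT. In the FANKO BAT library of ZT 22 replicate 1, Ighv5-4 took 62.1% (1331 of 2144 read pairs, 95% Wilson interval 60.0 to 64.1%) and Igkv6-13 30.5%. In ZT 6 replicate 4 Ighv5-4 took 55.0% (1303 of 2368) and Igkv12-44 54.3% (1122 of 2067). Ighv5-4 was otherwise a rare segment, with a median share of 0.786% over the 16 libraries.

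In ZT 6 replicate 3 Ighv3-6 took 60.2% (642 of 1067, 57.2 to 63.1%) and Igkv3-1 52.8%, and in ZT 18 replicate 4 the same pair took 44.6% (1057 of 2372) and 53.8% (1473 of 2740). Their median shares were 1.85% for Ighv3-6 and 0.218% for Igkv3-1. These were also the libraries with the highest Ighg2c share and the highest Ighg1 share. In ZT 10 replicate 2, the library of highest total, Ighv5-15 took 36.0% and Igkv8-30 46.6% (2021 of 4339). ZT 22 replicate 3, the next highest in total, had no such lead, with 11.5% Ighv1-82 and 13.2% Igkv3-4. The lowest share of a most used Ighv segment was 7.11%, held by both Ighv1-64 and Ighv14-3 in ZT 10 replicate 1.

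Not all abundant segments followed this pattern. Igkv10-96 was used in every FANKO BAT library, at 1.65, 5.63 and 10.5% of Igkv read pairs and 1.58, 6.62 and 16.9 CPM. By contrast, Igkv8-30 ranged from 0.316 to 225 CPM with a median of 0.655 CPM, and Igkv3-1 from 0 to 77.8 CPM with a median of 0.255 CPM. The Ighv1 family, the largest with 38 of the 80 segments, held a median of 50.7% of the Ighv read pairs of FANKO BAT libraries, against 37.3% for WT eWAT and 48.6% for FANKO eWAT.

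WT eWAT used other segments most often. Ighv11-2 led in 5 of 15 libraries and Igkv14-126 in 6 of 15. As background, Ighv11-2 with Igkv14-126, and Ighv12-3 with Igkv4-91, are known as pairings of antibodies to phosphatidylcholine made by B1 cells, innate-like B cells of the body cavities. Ighv11-2 and Ighv12-3 were singled out after their values were seen. Ighv11-2 had median shares of 9.09% in WT eWAT, 3.56% in FANKO eWAT and 0.560% in FANKO BAT, and Ighv12-3 of 5.31, 0.371 and 0%. Igkv14-126 had median shares of 17.8, 6.82 and 0.468% in that order. In level, Igkv14-126 was at 0.0791, 1.14 and 4.92 CPM in FANKO BAT and 0.115, 1.10 and 7.23 CPM in WT eWAT, so that its share differed between these groups more than its level.

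Both segments rose in BAT of FANKO mice with the rest, Ighv11-2 by 6.53 ± 0.97 (edgeR FDR 5.3e-08) and Igkv14-126 by 6.98 ± 1.07 (FDR 9.7e-08) on the log2 scale, each from 1 read pair in WT BAT. In WT mice they were lower in BAT than in eWAT, by 6.39 for Ighv11-2 (FDR 6.4e-08) and by 7.17 for Igkv14-126 (FDR 2.7e-08). In eWAT Ighv11-2 was -1.39 ± 0.49 between genotypes and missed the threshold (FDR 0.013). Shares in single eWAT libraries rested on 67 to 605 Ighv read pairs in WT, and the highest, 56.8% Ighv1-82 in WT ZT 22 replicate 1, on 46 of 81 (95% Wilson interval 45.9 to 67.0%).

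**Figure D5:**
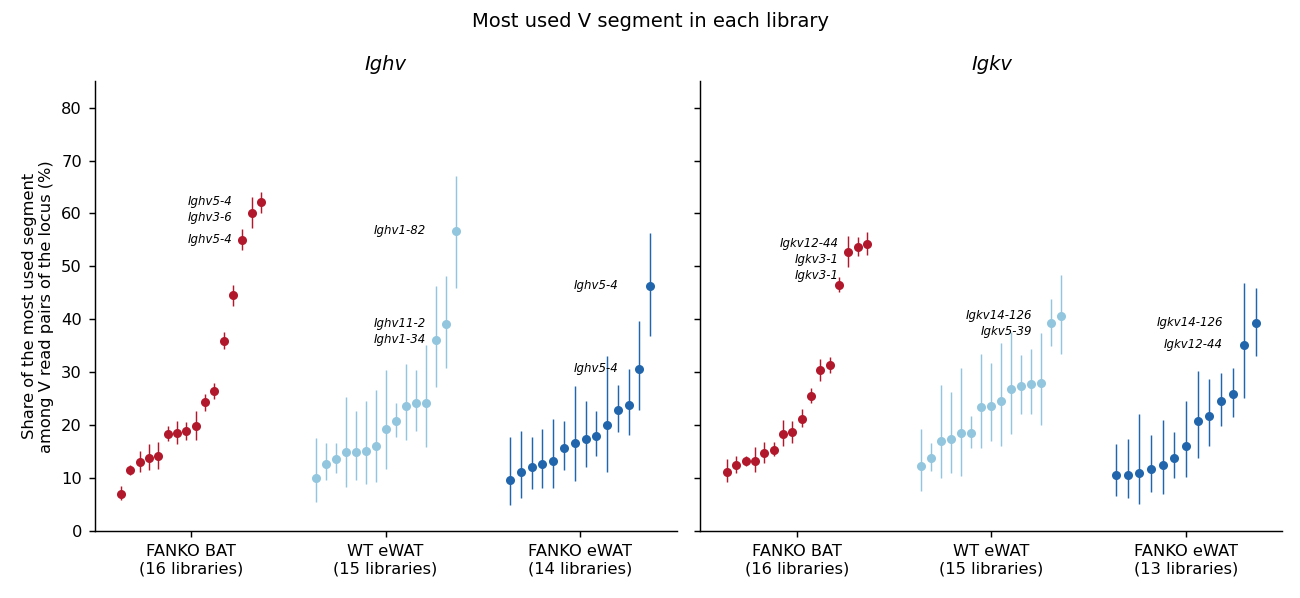
Share of the most used segment among all Ighv (left) or Igkv (right) read pairs, in percent, 1 point a library with at least 50 such read pairs, ordered within the group, with 95% Wilson intervals. Names mark up to 3 of the highest libraries per group. The highest FANKO BAT libraries reach 62.1% for Ighv and 54.3% for Igkv, and most points lie below 30%.

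Segment use was also set beside that of the eWAT library with the same ZT and replicate number in FANKO mice. Ighv5-4, at 55.0% in BAT of ZT 6 replicate 4, took 46.4% (45 of 97) in the eWAT library of that number and 1.21 to 8.33% in the other 3 of that ZT. Igkv12-44 took 35.2% (25 of 71) there against 0 to 4.13%. In ZT 22 replicate 1, Ighv5-4 took 30.7% (35 of 114) and Igkv6-13 12.5% (11 of 88) in eWAT. Such a match was not found throughout: Igkv3-1, at 52.8% in BAT of ZT 6 replicate 3, had 0 of 121 Igkv read pairs in eWAT of that number, which allows up to 3 read pairs. Over 151 segments, the same-numbered eWAT library was the most alike of the 4 of its ZT in 12 of 16 cases (r 0.215 to 0.732, as a description across segments). Among all 16 FANKO eWAT libraries it was the most alike in 6 of 16 cases. With the other numbers of its ZT r was 0.048 to 0.518. Some of these eWAT libraries had under 50 V read pairs, such as ZT 10 replicate 4 with 35 for Ighv and 38 for Igkv. The labels do not say that a number marks a mouse.

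The samples covered the day, and rhythms of 24 h were tested by cosine terms. In WT BAT 0 of the 131 genes were rhythmic by edgeR (0 also at an unadjusted p under 0.05) and 0 by DESeq2 (3 at an unadjusted p under 0.05), where 13.9% of all genes tested were. With 43 of the 131 at 0 read pairs there and most others near 0, a rhythm was not detectable at this depth for most of them. In FANKO BAT 8 were, where 2.84% of all genes were, in WT eWAT 1 of 131 (9.38% of all genes) and in FANKO eWAT 4 of 131 (6.77% of all genes). The gene in WT eWAT was Igha (FDR 0.0049), with medians of 3.63 CPM (ZT 6), 1.53 CPM (ZT 10), 2.01 CPM (ZT 18) and 3.90 CPM (ZT 22). The library of ZT 6 replicate 4 held 48.5% of its sum, and its FDR was 0.14 without that library and ZT 18 replicate 4.

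DESeq2 called 0 in FANKO BAT (14 at an unadjusted p under 0.05), 1 in WT eWAT and 4 in FANKO eWAT. The 8 that edgeR called in FANKO BAT were the V segments Ighv5-4, Igkv8-30, Igkv12-44, Igkv17-127, Igkv3-4, Igkv6-13, Igkv6-14 and Igkv1-133. With the replicate block Ighv5-4 (FDR 0.012), Igkv12-44 (0.096), Igkv6-13 (0.053) and Igkv8-30 (0.053) did not pass. Igkv8-30 (FDR 7.1e-04) had 85.2% of its group sum in ZT 10 replicate 2, and its FDR was 0.98 without the libraries numbered replicate 2. Of all 13 rhythmic genes, the library that was highest held 39.3 to 100% of the sum. When its replicate number was left out, 11 could be tested and 0 of them passed (FDR 0.027 to 1.0). Total immunoglobulin of WT eWAT was 272 to 428 CPM (ZT 6), 181 to 291 CPM (ZT 10), 190 to 294 CPM (ZT 18) and 390 to 471 CPM (ZT 22), so that ZT 22 was above ZT 10 and ZT 18 without overlap, with Ighm, its largest part, not rhythmic at the threshold (FDR 0.23).

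Other genes of B lineage cells were read from lists chosen with earlier results of these data known. Of 21 B cell genes, 21 were higher in FANKO BAT, where 33.1% of all genes tested were higher and 33.9% lower. Their median log2 fold change was 3.64, beside 6.80 for the immunoglobulin genes. Cd72, a receptor that tempers B cell signals, rose by 5.30, Cd22, which does likewise, by 5.16 and Spib, a transcription factor of B cells, by 5.50. In eWAT 1 was higher, 8 were lower (13 with scaling by total counts alone) and 12 did not pass, where 27.6% of all genes were higher and 22.8% lower. Cd72 rose there by 2.42 (edgeR FDR 7.4e-17), and Cd22 was at -0.44 (FDR 0.086). The list summed to 53.9 to 113 CPM in WT BAT and 401 to 1018 CPM in FANKO BAT. In eWAT it summed to 301 to 558 CPM in WT and 331 to 564 CPM in FANKO.

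Of 16 plasma cell genes, 11 were higher in FANKO BAT, 2 lower and 3 not past the threshold (33.1% and 33.9% of all genes were higher and lower). Jchain was at 0, 0.860 and 1.73 CPM in WT BAT and at 31.4, 73.9 and 279 CPM in FANKO BAT (log2 fold change 6.77 ± 0.41, edgeR FDR 1.6e-22). Mzb1, a chaperone of antibody assembly, rose by 5.35, Slamf7, a surface protein, by 5.50, Pou2af1, a coactivator of immunoglobulin transcription, by 4.84 and Prdm1, the transcription factor that drives plasma cell fate, by 2.38. Tnfrsf17 and Xbp1 of the same list are named because their levels moved little. Tnfrsf17 was at 0, 0.137 and 1.41 CPM in WT BAT and at 0, 0.244 and 1.34 CPM in FANKO BAT. Xbp1 was at 62.3, 76.4 and 112 CPM in WT BAT and at 69.7, 84.1 and 111 CPM in FANKO BAT. The 2 that fell, named for that reason, were Irf4, a transcription factor of B and plasma cells, by 0.67 (FDR 9.6e-07) and Eaf2, an elongation factor, by 0.42 on the log2 scale (FDR 2.5e-04), and with scaling by total counts alone they were at -0.09 (FDR 0.52) and 0.17 (FDR 0.16). In eWAT 7 were higher and 2 lower, where 27.6% and 22.8% of all genes were, and with total counts alone 3 were higher and 5 lower. Jchain did not pass there (0.06, FDR 0.87), Slamf7 rose by 1.19 and Pou2af1 fell by 0.93 on the log2 scale (FDR 0.0040, and 0.16 without the libraries numbered replicate 4). Of 8 genes of switching and recombination 2 were tested. Dntt, which adds bases at V joins in early lymphocytes, rose in BAT by 5.45 ± 0.62 (FDR 5.7e-11) from 1 read pair in WT BAT, and Ung, a DNA repair enzyme used in switching, fell by 0.85 on the log2 scale (FDR 0.052 with scaling by total counts alone).

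Receptors that bind antibodies moved too. Of 9 tested genes of Fc receptors and antibody transport, 6 were higher and 1 lower in FANKO BAT (33.1% and 33.9% of all genes). Fcgr1 and Fcgr4, activating receptors for IgG, rose by 5.70 and 5.43 in BAT and by 2.10 and 3.20 in eWAT. Fcgrt, which keeps IgG from breakdown, fell by 1.26 ± 0.05 on the log2 scale in BAT (FDR 1.6e-29) and was at -0.03 in eWAT. Fcamr, a receptor for IgM and IgA, fell in eWAT by 2.73 ± 0.26 (FDR 1.6e-13). In eWAT 4 of the 9 were higher and 1 lower (27.6% and 22.8% of all genes).

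Of 10 tested genes that draw or sustain B cells, 8 were higher, 1 was lower and 1 did not pass the threshold in FANKO BAT (33.1% and 33.9% of all genes were higher and lower). Il10, a cytokine that B cells make and answer to, rose by 7.34 in BAT and by 1.76 in eWAT. Cxcl13, the chemokine that draws B cells, rose by 2.92 in BAT and fell by 1.62 on the log2 scale in eWAT (FDR 1.2e-04, and 0.14 without the libraries numbered replicate 4). Tnfsf13b, a survival factor of B cells, rose by 2.03 in BAT. The 1 that was lower was Ccl28, a chemokine of mucosal tissues, at -1.73 in BAT (FDR 2.1e-04, and 0.012 with total counts alone). In eWAT 1 of the 10 was higher and 4 lower (27.6% and 22.8% of all genes).

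Markers of other cells moved in the same samples. The 10 T cell genes summed to 1.31 to 5.08 CPM in WT BAT and 66.6 to 217 in FANKO BAT, and to 5.15 to 16.2 in WT eWAT and 12.7 to 37.3 in FANKO eWAT. The 6 macrophage genes summed to 86.3 to 163 CPM in WT BAT and 469 to 1149 in FANKO BAT. Red blood cell genes, a sign of blood in the tissue, were lower in FANKO BAT in 5 of 5 tested, where 33.9% of all genes were lower. They summed to 225 to 545 CPM in WT BAT and 80.4 to 229 in FANKO BAT. Skeletal muscle (6 tested) and epididymis genes (4 tested) did not pass in BAT, and 1 of 6 and 0 of 4 passed in eWAT. Of all genes tested, 67.0% changed either way in BAT and 50.3% in eWAT. The part of any of these in the immunoglobulin levels was not tested.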

How the data were processed

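Total RNA after ribosomal depletion was sequenced by the authors as stranded 38-base read pairs from 64 libraries. Per the study's methods and the submitters' processing notes, reads were checked with FastQC 0.11.5 and MultiQC 1.2, aligned with STAR 2.5.3a to GRCm38.p5 and counted with featureCounts 1.5.3. The strand and multi-mapping options of the counting are not given in the sources used here, and near-identical V segments can share or lose read pairs. The deposited values were raw counts of read pairs per gene, 6117343 to 30544847 per library. Symbols and coordinates came from GENCODE transcripts on GRCm38 and matched 52403 of 52636 identifiers.

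The members and lists were chosen with earlier results of these data known. With R 4.3.3, edgeR 4.0.16 and limma 3.58.1, 1 quasi-likelihood model with TMM scaling held a mean and 24 h cosine and sine terms for each depot and genotype. It was fitted to the 20249 genes kept by the default expression filter over 16 groups, and genes with a Benjamini-Hochberg FDR below 0.01 over all of them were called. DESeq2 1.42.0 was an alternative, beside other scalings, filters, time as a factor, each depot alone, a replicate block, each replicate number left out and, chosen after seeing the data, 3 sets of libraries left out. The fit was tested on simulated data: of 20249 genes in the BAT comparison, 90% of changes of -2, 74% of -1, 80% of 1 and 94% of 2 on the log2 scale were called, as were 2 of 20049 unchanged genes. CPM, shares and ratios were computed with Python 3.11.15, pandas 2.3.3, numpy 2.4.6 and scipy 1.17.1. Shares needed 50 read pairs in a library, which gives wide intervals.

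Named genes were all constant genes, the 4 Ighv, 4 Igkv and 2 Iglv segments with the most read pairs, the 3 largest rises and falls past the threshold in each genotype comparison and in their difference, the segments leading the 3 most concentrated libraries of each locus, the genes at the threshold of 50 read pairs, and up to 8 genes of a list by smallest p. Other segments were named from their libraries or rhythm calls after their values were seen. The other 6 relations across libraries are not reported here.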

Additional observations from a re-analysis of the deposited data

Results flagged for a closer look

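Of 129 sets of 4 libraries of 1 group, time and measure, 3 held a library far from the other 3, where chance gives about 1 in 20. Total immunoglobulin was 184.4 CPM in FANKO eWAT ZT 10 replicate 1 and 286.3 to 310.6 CPM in the others of that time. Ighm was 637.1 CPM in FANKO BAT ZT 18 replicate 1 and 137.9 to 174.8 CPM in the others. Iglc2 was 1.309 CPM in FANKO BAT ZT 18 replicate 2 and 4.052 to 4.537 CPM in the others.

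The genotype effect differed between the depots by the test of the difference (edgeR, FDR below 0.01) for 22 named genes. The log2 fold change in BAT minus that in eWAT was 6.45 for Ighm, 3.23 for Ighd, 8.82 for Ighg3, 7.52 for Ighg2b, 9.12 for Ighg2c and 6.1 for Igha among heavy chain constant genes. Among light chain constant genes it was 8.63 for Igkc, 6.65 for Iglc1, 6.7 for Iglc2 and 6.24 for Iglc3. Among heavy chain V segments it was 7.82 for Ighv5-4, 8.33 for Ighv3-6, 6.61 for Ighv1-53 and 9.67 for Ighv1-82. Among light chain V segments it was 9.64 for Igkv8-30, 7.67 for Igkv10-96, 8.32 for Igkv4-91, 8.53 for Igkv14-126, 9.44 for Igkv6-15, 7.23 for Igkv12-44, 7.0 for Iglv1 and 6.25 for Iglv3. Without the WT eWAT libraries of ZT 6 replicate 4 and ZT 18 replicate 4, Ighv5-4 and Ighv3-6 did not pass this test (FDR 0.14 and 0.10). The limit given above for segments that passed the filter through FANKO BAT alone holds here too.

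Read pairs outside the 165 genes pointed the same way. The 216 genes of these symbols with under 50 read pairs, 94 of them at 0 throughout, summed to 864 read pairs in FANKO BAT and 18 in WT BAT, and to 211 in WT eWAT and 131 in FANKO eWAT. Ighe had 20 read pairs in FANKO BAT and 0 in WT BAT.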

How the results depend on the processing

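The count of immunoglobulin genes higher in FANKO BAT was 130 and stayed between 123 and 157, except with a filter of 1 CPM in 16 libraries, which left 19 to test and called 19. That filter gave 17 for the WT depot comparison, 18 for the FANKO depot comparison, 18 for the difference of effects and 2 rhythmic genes. In eWAT the 5 calls became 8 with scaling by total counts alone, 10 at an FDR of 0.05 and 3 to 6 when a replicate number was left out. The 40 genes lower in WT BAT than in WT eWAT became 62 with total counts alone, 66 at an FDR of 0.05, 24 without WT eWAT ZT 6 replicate 4 and ZT 18 replicate 4, 45 without FANKO BAT ZT 10 replicate 2 and ZT 22 replicate 3, and 22 to 36 without a replicate number. Rhythmic genes, 13 in all, were 5 by DESeq2, 4 with 1 depot fitted alone, 31 at an FDR of 0.05 and 4 to 7 without a replicate number. Leaving out a replicate number gave 116 to 128 for the FANKO depot comparison and 77 to 98 for the difference of effects. Total counts alone moved the median log2 fold change of all genes to 0.58 in BAT, -0.27 in eWAT, -0.86 between depots in WT and 0.88 for the difference of effects. Ell2, an elongation factor of plasma cells, turned from -0.13 (FDR 0.030) to 0.46 in BAT under that scaling. Without division by length the Igha share of FANKO eWAT was 4.36%. V use was also measured as the chance that 2 different read pairs of a library lie on the same segment. Its medians were 7.04% (Ighv, FANKO BAT), 6.47% (Ighv, WT eWAT), 6.31% (Ighv, FANKO eWAT), 7.44% (Igkv, FANKO BAT), 8.10% (Igkv, WT eWAT) and 5.95% (Igkv, FANKO eWAT). In that order, the share of the most used segment had medians of 19.3, 19.4, 17.1, 20.0, 23.6 and 16.2%. With at least 200 read pairs a library, the 4 FANKO eWAT libraries left for Igkv had medians of 9.11 and 25.3%. Of 1728 values of named genes, 1677 kept their side of the threshold (41 of these changed sign without a call in either), 31 lost it, 19 gained it and 1 turned. Causes were not tested.

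The labels do not say that replicate numbers pair libraries, and the numbers were not used as pairs: same-numbered deviations correlated over 0.1 in 10 of 32 BAT and eWAT pairs and 6 of 32 WT and FANKO pairs, and the own number was the highest in 18 and 15 of 32, a hint from the data and not the design. With the replicate block the counts were 130 in BAT, 4 in eWAT, 42 and 129 between depots, 104 for the difference and 7 rhythmic. Depth limits V shares in eWAT and gives none for WT BAT.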
